A study of Mus musculus with 7 samples.

Results

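The 60 genes described here encode the core of WNT signalling, namely 16 WNT ligands, 15 receptors and coreceptors, 10 transducers inside the cell, 4 TCF/LEF transcription factors, 8 secreted inhibitors and 7 genes of the R-spondin axis. They were named as a list by their place in the pathway, with earlier results of these data known, and no measured value enters the rule. A peak of 5-methylcytosine (5mC) or 5-hydroxymethylcytosine (5hmC) was counted at a gene when the authors had given it that gene's symbol, or when it overlapped the gene or the 5000 bp upstream of its start on the mouse genome build GRCm38. By this rule 23 of the 60 genes held a peak, and 55 of the 8949 peaks in the 4 deposited lists lay at one of them.

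WNT ligands bind frizzled receptors together with LRP or ROR coreceptors at the cell surface. In the canonical branch this stops the destruction complex of AXIN, APC and GSK3 from degrading β-catenin, which then enters the nucleus and works with TCF/LEF factors at their target genes, while other branches act through ROR receptors, DAAM1 and small GTPases. In the growth plate, high β-catenin activity holds back early chondrocyte differentiation and favours bone formation, and the ROR2 branch shapes the columns of cartilage cells. In gene bodies and at enhancers, TET enzymes oxidise 5mC to 5hmC, a mark that is often found at genes in use.

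The cells were ATDC5, a mouse chondroprogenitor line for which the labels give no genetic change and which can form cartilage in culture. Chondroprogenitors (day 0) were kept in medium with serum and ascorbic acid, and differentiating chondrocytes (days 5 and 10) had insulin, transferrin and selenite added to that medium. The groups were day 0 5mC (1 sample), day 10 5mC (1 sample), day 5 5hmC (2 samples merged by the authors into 1 list) and day 10 5hmC (2 samples, likewise merged). An input sample of day 0 DNA was not analysed here, and how many cultures were sampled is not stated in the labels.

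The lists hold 326 (day 0 5mC), 2401 (day 10 5mC), 2058 (day 5 5hmC) and 4164 (day 10 5hmC) peaks, each given by its position only. Per the file headers, 5mC peaks are regions with at least 3-fold and 5hmC peaks regions with at least 10-fold enrichment, but the comparison sample is not named, so a list may hold differences between samples and not every site of a mark. Sequencing depth is unknown and each mark and day has 1 list, so the values below are descriptions with no replicate spread and no test, and the lack of a peak does not show that a mark was absent. Days are those of the labels. The study's own stage names place the day 10 5hmC list in intermediate cells and the day 10 5mC list in chondrocytes, so these may not be the same stage. In the paper, intermediate stands for day 10 and chondrocyte for a later day, so the 5mC list labelled day 10 may be from a later day. Its methods also name no day 5 collection for these marks. The day 0 5mC list stood apart in sequence, with a median of 0.523 CpG per 100 bp and 78.7% of bases in repeats. It had peaks at 0.556% of protein-coding genes and 0 peaks at the 60 genes.

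Of all 14 day 5 and 25 day 10 5hmC peaks at these genes, those at Tcf7l1, Tcf7l2 and Wnt4 overlapped between the days, and each day 10 peak lay wholly inside the day 5 peak. Their sequences are shown because they are the regions of the pathway found marked in both 5hmC lists. Each is written 5′ to 3′ along the strand of its gene, with every CpG, the substrate of both marks, in capitals. For Tcf7l2 and Wnt4 the whole shared part is given, and for Tcf7l1 its central 300 bases.
Tcf7l1, chr6:72714305-72714604, minus strand: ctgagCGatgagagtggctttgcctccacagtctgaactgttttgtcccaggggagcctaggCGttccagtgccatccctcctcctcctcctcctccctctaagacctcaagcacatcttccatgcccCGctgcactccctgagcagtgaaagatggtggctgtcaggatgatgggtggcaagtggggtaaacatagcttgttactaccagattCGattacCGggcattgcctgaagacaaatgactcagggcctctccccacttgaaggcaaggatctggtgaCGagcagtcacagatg
Tcf7l2, chr19:55740594-55740810, plus strand: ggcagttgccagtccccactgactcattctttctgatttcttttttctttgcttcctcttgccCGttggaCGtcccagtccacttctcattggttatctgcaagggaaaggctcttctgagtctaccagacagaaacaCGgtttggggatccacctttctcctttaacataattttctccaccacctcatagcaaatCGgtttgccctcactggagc
Wnt4, chr4:137271969-137272190, plus strand: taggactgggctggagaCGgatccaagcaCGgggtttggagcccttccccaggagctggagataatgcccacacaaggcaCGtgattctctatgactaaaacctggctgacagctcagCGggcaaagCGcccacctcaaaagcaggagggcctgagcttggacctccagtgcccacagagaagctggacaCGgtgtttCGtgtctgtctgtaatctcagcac
The Tcf7l1 stretch is intronic and holds 6 CpG in its 300 bases. The Tcf7l2 stretch, in the promoter, holds 4 CpG in 217 bases. The Wnt4 stretch, with 7 CpG in 222 bases, lies just beyond 5000 bp upstream of the gene. The string of AP-1 factors, searched as TGACTCA and, for the opposite strand, as TGAGTCA, occurs once in each of the Tcf7l1 and Tcf7l2 stretches and is not in the Wnt4 stretch.

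Besides those of Tcf7l2, peaks in a promoter or over a transcription start were seen at Wnt1 on day 5 and at Fzd6 on day 10, and their sequences are shown next. The day 5 peak of Wnt4, whose edge just reached into the 5000 bp, is covered above. For Wnt1 only the 300 bases before the start are given, since the rest of that peak reaches into the transcript, and for Fzd6 the whole peak is given.
Wnt1, chr15:98789557-98789856, plus strand: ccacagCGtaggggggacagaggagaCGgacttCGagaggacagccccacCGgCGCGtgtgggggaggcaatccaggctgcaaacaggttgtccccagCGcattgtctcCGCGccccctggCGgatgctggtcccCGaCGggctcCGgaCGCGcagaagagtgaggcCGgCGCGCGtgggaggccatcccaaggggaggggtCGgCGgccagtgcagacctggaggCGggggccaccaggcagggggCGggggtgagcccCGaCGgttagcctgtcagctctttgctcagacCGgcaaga
Fzd6, chr15:39004266-39004399, plus strand: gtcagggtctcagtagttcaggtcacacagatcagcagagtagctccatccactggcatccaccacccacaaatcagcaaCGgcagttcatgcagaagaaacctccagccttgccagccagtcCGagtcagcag
The Wnt1 stretch holds 26 CpG in 300 bases, and the Fzd6 peak 2 in 134.

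TCF and LEF factors bind a short string, searched here as CTTTGAA or CTTTGAT and their reverse complements TTCAAAG and ATCAAAG. It was present in 4 day 10 5hmC peaks at these genes, at Daam1, Frzb, Tcf7l2 and Znrf3. All 4 peaks were intronic and are shown whole, with the string in capitals.
Daam1, chr12:71899303-71899440, plus strand: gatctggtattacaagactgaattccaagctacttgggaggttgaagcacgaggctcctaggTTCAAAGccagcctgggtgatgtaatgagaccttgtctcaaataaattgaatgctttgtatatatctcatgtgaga
Frzb, chr2:80431479-80431638, minus strand: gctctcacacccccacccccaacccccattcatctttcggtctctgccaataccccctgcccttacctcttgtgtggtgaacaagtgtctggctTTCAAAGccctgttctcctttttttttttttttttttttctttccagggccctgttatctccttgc
Tcf7l2, chr19:55852351-55852513, plus strand: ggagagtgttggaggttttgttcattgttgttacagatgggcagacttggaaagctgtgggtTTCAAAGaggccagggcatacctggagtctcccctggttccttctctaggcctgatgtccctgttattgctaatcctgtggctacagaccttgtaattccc
Znrf3, chr11:5357490-5357677, minus strand: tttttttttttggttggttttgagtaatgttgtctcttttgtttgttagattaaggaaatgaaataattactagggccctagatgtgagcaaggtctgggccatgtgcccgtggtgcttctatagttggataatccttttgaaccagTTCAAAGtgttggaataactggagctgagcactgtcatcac
The string was TTCAAAG in all 4, read along the strand of the gene, and occurred once in each. These peaks were poor in CpG, with 1 at each of Daam1, Frzb and Znrf3 and 0 at Tcf7l2. The median over the 25 day 10 5hmC peaks at these genes was 4.

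Of the day 10 5mC peaks at these genes, 8 overlapped a coding exon. Coding sequence under a peak is shown for Axin2, a feedback target and brake of the pathway, and for Ror1, Wnt5b and Wnt6, where the midpoint of a peak fell in a coding exon. The Wnt5b peak is a day 5 5hmC peak and the others are day 10 5mC peaks. At most 200 central bases of the coding part are given, with CpG in capitals.
Axin2, chr11:108931439-108931579, plus strand: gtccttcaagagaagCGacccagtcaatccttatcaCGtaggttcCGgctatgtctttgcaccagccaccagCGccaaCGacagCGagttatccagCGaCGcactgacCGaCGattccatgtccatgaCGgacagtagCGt
Ror1, chr4:100441467-100441666, plus strand: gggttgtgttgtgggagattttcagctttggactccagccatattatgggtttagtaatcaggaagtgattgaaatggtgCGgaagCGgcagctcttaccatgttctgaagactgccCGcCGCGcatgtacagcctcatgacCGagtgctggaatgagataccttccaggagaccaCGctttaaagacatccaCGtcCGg
Wnt5b, chr6:119446341-119446540, minus strand: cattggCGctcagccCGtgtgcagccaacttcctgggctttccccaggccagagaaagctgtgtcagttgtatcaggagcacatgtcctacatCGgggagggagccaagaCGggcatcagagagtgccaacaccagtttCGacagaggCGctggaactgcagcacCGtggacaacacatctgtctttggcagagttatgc
Wnt6, chr1:74782627-74782826, plus strand: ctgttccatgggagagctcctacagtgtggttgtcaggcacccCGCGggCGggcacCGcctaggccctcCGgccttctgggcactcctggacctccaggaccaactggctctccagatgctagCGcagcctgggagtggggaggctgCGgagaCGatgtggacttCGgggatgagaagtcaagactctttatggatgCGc
There are 12 CpG in the 141 bases of Axin2. The 200-base stretches hold 9 at Ror1, 7 at Wnt5b and 10 at Wnt6.

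The first question was how many WNT genes carried a peak of each mark on each day. A day 10 5hmC peak was found at 16 of 60 genes (26.7%), against a background of 8.32% of the 21951 protein-coding genes. On day 5, 8 genes (13.3%) held a 5hmC peak, against 5.27%. A day 10 5mC peak was present at 11 genes (18.3%), against 6.71%. The day 0 5mC list had peaks at 0.556% of protein-coding genes and at 0 of the 60, a rate at which 60 genes are too few to show a difference. Counting any list, 23 genes (38.3%) had a peak, against 15.9%. The share among WNT genes was thus above the background in each list other than that of day 0.

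WNT genes are longer than most, with a median of 33.9 kb against 17.4 kb for protein-coding genes, and long genes have more room for peaks. The 23 genes with a peak had a median length of 66.7 kb and the 37 without one 22.7 kb. Within classes of length, a peak in any list was found at 11 of 14 WNT genes of 100 kb or more (78.6%; background 48.3%), at 7 of 27 of 20 to 100 kb (25.9%; background 19.9%) and at 5 of 19 of under 20 kb (26.3%; background 6.43%). Gsk3b, Apc and Lgr5 were the genes of 100 kb or more without a peak. In the shortest class the 5 genes were Wnt1, Wnt6, Wnt16, Fzd1 and Fzd9, and the last 3 were counted only through the authors' symbol, each for a single peak more than 5000 bp upstream. Per Mb of gene and upstream sequence, the 60 genes held 5.65 day 10 5hmC, 3.6 day 5 5hmC and 3.85 day 10 5mC peaks, against 2.12, 1.1 and 1.48 for all protein-coding genes.

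**Figure D1:**
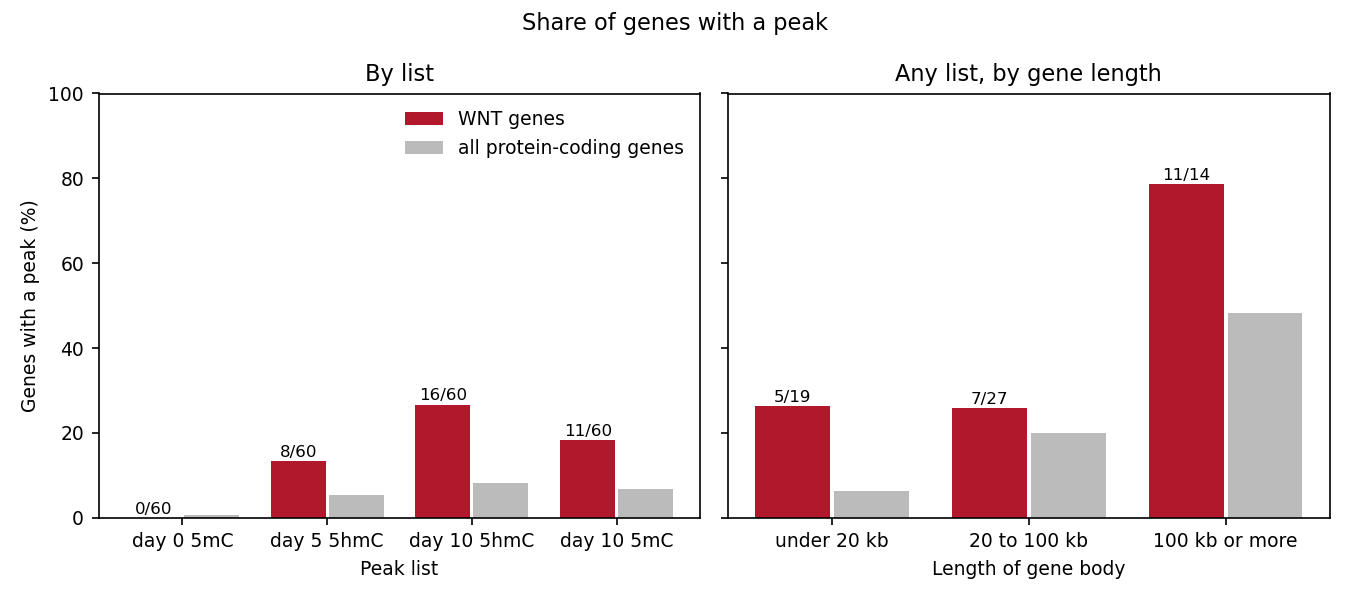
Percent of genes with a peak (vertical axis) among the 60 WNT genes (red bars, with the number of genes above) and all protein-coding genes (grey bars), by peak list on the left and, for any list, by length of the gene on the right. The red bar is the higher one in 3 of the 4 lists and in all 3 length classes, and in the day 0 5mC list it is at 0; the bars have no error since there is 1 list for each mark and day.

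By role, peaks were most numerous at the TCF/LEF factors, where 3 of 4 genes held 19 of the 55 peaks, 11 of them at Tcf7l2. Receptors and coreceptors followed with 15 peaks at 7 of 15 genes, and ligands with 11 peaks at 6 of 16 genes. The other roles held few. Secreted inhibitors had 4 peaks at 3 of 8 genes, transducers 3 peaks at 2 of 10, and the R-spondin axis 3 peaks at 2 of 7. A peak in any list was found at 15.9% of protein-coding genes and at 48.3% of those of 100 kb or more. The factors with a peak, Lef1, Tcf7l1 and Tcf7l2, were 113.9, 162.9 and 191.8 kb long, and Tcf7, without one, 30.6 kb. The part of gene length in the order of the roles was not tested. Of the 60 genes, 13 had peaks in 1 list, 8 in 2 lists and 2, Tcf7l1 and Tcf7l2, in 3 lists. Of protein-coding genes, 4.14% had peaks in 2 or more lists and 0.793% in 3 or more, and of those of 100 kb or more, to which Tcf7l1 and Tcf7l2 belong, 20.7% and 5.1%.

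**Figure D2:**
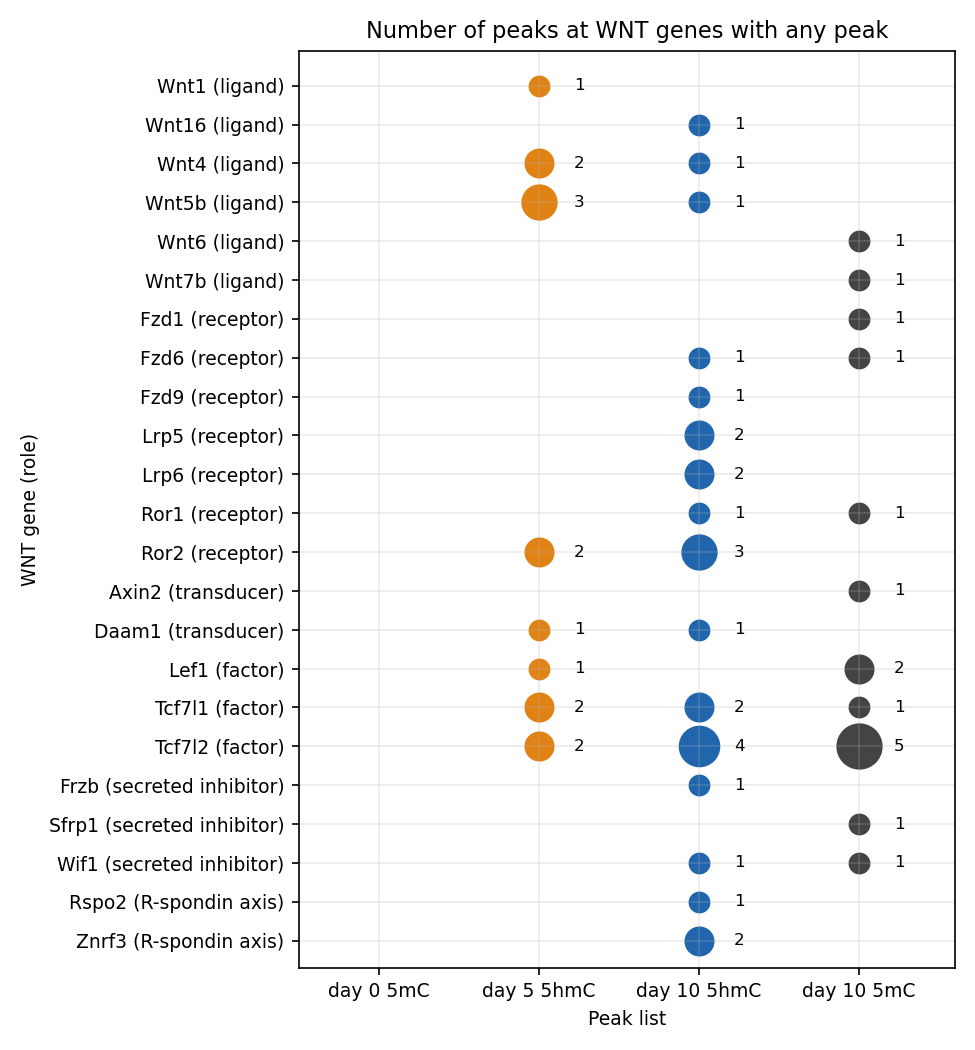
Number of peaks (circle area, with the number beside it) in each of the 4 lists (horizontal axis) at the 23 WNT genes with any peak (vertical axis, ordered by role). The day 0 5mC column is empty, Tcf7l2 has the most peaks with 2, 4 and 5 in the other lists, and the 2 genes of the R-spondin axis have day 10 5hmC peaks only.

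Among the ligands, Wnt5b, a non-canonical ligand made in cartilage, held the most peaks. All 3 of its day 5 5hmC peaks and its day 10 peak lay within the 111.8 kb gene. The day 5 peaks were at chr6:119535870-119536769 and chr6:119526131-119527261, both intronic and 8.03 and 17.7 kb past the start, and at chr6:119445991-119446893, over a coding exon 97.9 kb past it. The day 10 peak, at chr6:119460105-119460330, was intronic and 13.2 kb from the nearest day 5 peak, so none of the Wnt5b sites was shared between the days. A count of 3 or more day 5 5hmC peaks was reached by 0.155% of protein-coding genes of all lengths, and the share among long genes was not computed.

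Wnt4, a ligand of joint and kidney development, had a day 5 5hmC peak about 5 kb upstream at chr4:137271647-137272536 and another in an intron at chr4:137286473-137287363. The day 10 peak, the 222 bases printed above, covered 24.9% of the upstream day 5 peak. Wnt1, a canonical ligand, had its single peak in the day 5 5hmC list, at chr15:98789127-98790103. This was the only peak at the 60 genes that spanned a transcription start, and with 5.42 CpG per 100 bp the richest in CpG of the 14 day 5 peaks. Wnt16, a ligand known for its part in cortical bone, had a day 10 5hmC peak 7.54 kb upstream, at chr6:22280522-22280683. The remaining peaks at ligands were 5mC peaks of day 10. At Wnt6, a ligand best known from epithelia, the peak chr1:74782439-74783324 covered a coding exon 11 kb past the start. At Wnt7b, a ligand of bone-forming cells, the peak chr15:85559616-85560647 was intronic, 22.3 kb past the start. Wnt2, Wnt2b, Wnt3, Wnt3a, Wnt5a, Wnt7a, Wnt9a, Wnt9b, Wnt10b and Wnt11 had no peak in any list.

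Among the receptors, Ror2, the tyrosine kinase receptor of the non-canonical branch in cartilage, held 5 peaks, all of 5hmC and all intronic. Those of day 5 were wide, at chr13:53231285-53234014 (2730 bp, the widest of the 55 peaks) and chr13:53248525-53249854 (1330 bp). Those of day 10 were narrow, at chr13:53201769-53201925, chr13:53244433-53244616 and chr13:53257385-53257657, between 157 and 273 bp. Sites of the 2 days were neighbours but did not overlap, with 3.91 and 7.53 kb between the day 5 peak of 1330 bp and the day 10 peaks on either side of it. Its relative Ror1 had an intronic day 10 5hmC peak at chr4:100191558-100191727, 95.9 kb into the gene, and a 5mC peak of 885 bp at chr4:100441125-100442009. The 5mC peak lay over coding exon sequence 345.8 kb into the 349.0 kb gene.

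The LRP coreceptors of the canonical branch had day 10 5hmC peaks only, 2 at each gene and all intronic. At Lrp5 these were chr19:3666729-3666880 and chr19:3623332-3623455, and at Lrp6 chr6:134505034-134505221 and chr6:134488955-134489123. Of the 10 frizzled receptors, Fzd1, Fzd6 and Fzd9 had a peak. Fzd6, a receptor of planar cell polarity, carried both marks, with a day 10 5hmC peak 1.7 kb upstream at chr15:39004266-39004399, where the predicted gene Gm26704 also lies, and a 5mC peak of 961 bp at chr15:39025418-39026378 that reached a coding exon 19.9 kb into the gene. The Fzd9 peak, day 10 5hmC at chr5:135258486-135258623, lay 7.26 kb upstream and had 13 CpG in 138 bp, or 9.42 per 100 bp, the highest of all 55 peaks. The Fzd1 peak, 5mC at chr5:4764862-4765815, was 6.83 kb upstream, where the predicted gene Gm15750 also lies. It had 66.7% of its bases in repeats and 1.15 CpG per 100 bp, the lowest of the 16 5mC peaks. No peak was listed at Fzd2, Fzd3, Fzd4, Fzd5, Fzd7, Fzd8, Fzd10 or Ryk.

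Of the transducers, Axin2 had a 5mC peak of 569 bp at chr11:108931334-108931902, which included a whole coding exon and 20 CpG. Daam1, the formin that links Dishevelled to the actin skeleton, had 5hmC peaks on both days at different places. The day 5 peak, chr12:71833960-71834448, was 3.13 kb past the start and the day 10 peak, chr12:71899303-71899440, 68.3 kb past it. Without a peak were Ctnnb1, which encodes β-catenin, the Dishevelled genes Dvl1, Dvl2 and Dvl3, and Apc, Apc2, Axin1 and Gsk3b of the destruction complex.

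The factors at the end of the canonical branch held the largest numbers. Tcf7l2 had 11 peaks over 191.8 kb, a count reached by 16 protein-coding genes (0.0729%), or by 0.482% of those of 100 kb or more. On both days a 5hmC peak lay in its promoter, chr19:55740328-55741121 on day 5 and the 217 bases printed above on day 10, which was 27.3% of the day 5 peak. The other 5hmC peaks were intronic. They lay 131.8 kb past the start on day 5 and 9.15, 73.3 and 110.6 kb past it on day 10. Its 5 day 10 5mC peaks lay 62.4, 76.2, 172.5, 175.0 and 182.9 kb past the start. At least as many 5mC peaks were held by 0.0683% of protein-coding genes of all lengths, and the share among long genes was not computed. Of the 5mC peaks at Tcf7l2, chr19:55817546-55818435 and chr19:55924376-55925075 touched a coding exon, and chr19:55803710-55804680, chr19:55913707-55914854 and chr19:55916401-55917227 were intronic. From the promoter up to the peak at 62.4 kb Tcf7l2 held 5hmC peaks and no 5mC peak, between 62.4 and 131.8 kb peaks of both marks were interleaved, and the last 3 peaks were all of 5mC. The nearest pair of different marks, day 10 5hmC at chr19:55814958-55815216 and 5mC at chr19:55817546-55818435, had 2330 bp between them.

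Tcf7l1, a TCF factor that mostly represses, had 5 peaks, all intronic. The shared site lay 74.5 kb past the start and measured 1707 bp on day 5, at chr6:72713888-72715594, and 488 bp on day 10, at chr6:72714212-72714699. The day 10 peak was the widest of its 25. The other 5hmC peaks were at chr6:72768521-72769739 on day 5 and chr6:72643092-72643239 on day 10, and the 5mC peak at chr6:72755505-72756472 lay 12 kb from the nearer of them. The predicted gene Gm38114 also lies at chr6:72643092-72643239. Lef1, a TCF/LEF factor that mostly activates, had a day 5 5hmC peak at chr3:131138884-131139628, 28.8 kb past the start, and 5mC peaks at chr3:131203651-131204821 and chr3:131219529-131220353, 93.8 and 109.5 kb past it. Its 5hmC peak, where the predicted gene Gm42449 also lies, was nearer the start and both 5mC peaks nearer the end of the gene. Tcf7 had no peak.

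**Figure D3:**
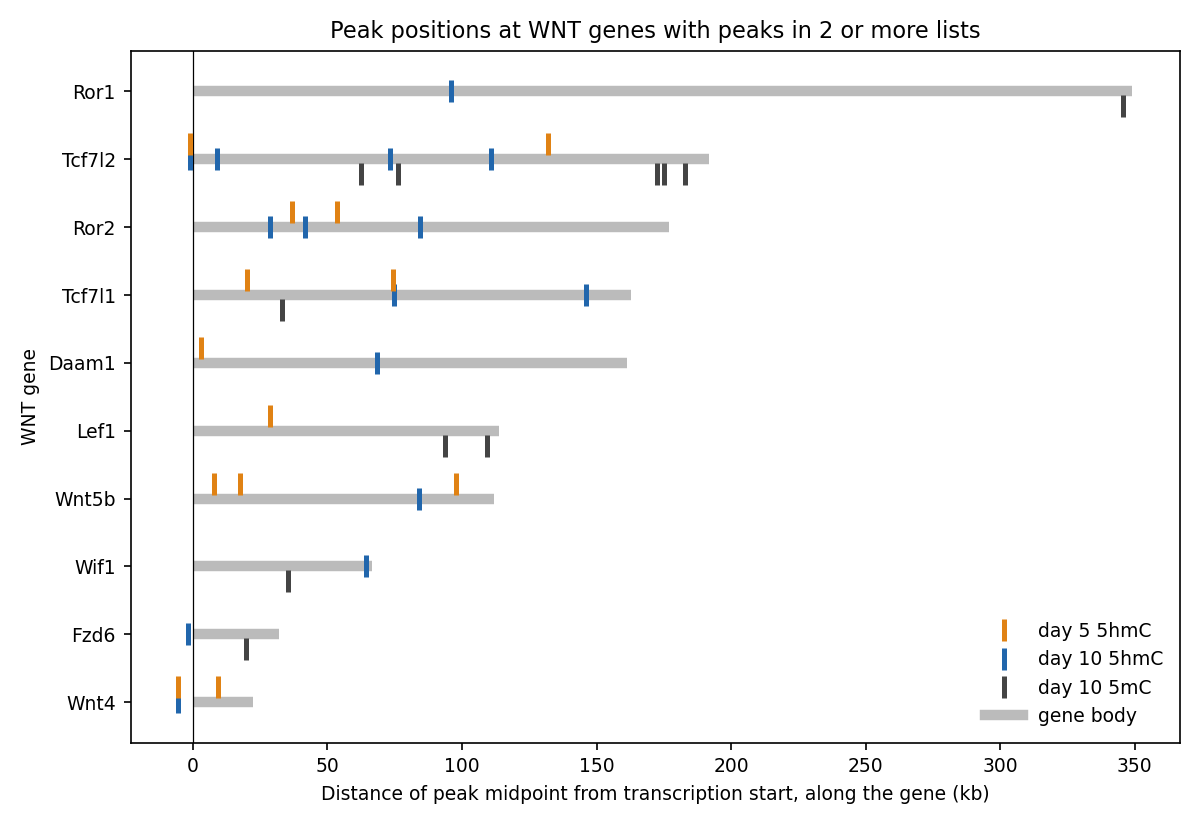
Distance of each peak midpoint from the transcription start in kb, measured along the gene (horizontal axis), for the 10 WNT genes with peaks in 2 or more lists, with gene bodies in grey and ticks for day 5 5hmC (orange), day 10 5hmC (blue) and day 10 5mC (dark grey). Tcf7l2, Tcf7l1 and Wnt4 have orange and blue ticks at the same place, and no dark tick lies before the start of a gene.

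The secreted inhibitors bind WNTs or their coreceptors outside the cell. Frzb, an inhibitor known from joint cartilage, had a day 10 5hmC peak in an intron at chr2:80431479-80431638. Wif1, which binds WNT ligands, had a 5mC peak at chr10:121068796-121069707, 35.3 kb past the start, and a day 10 5hmC peak at chr10:121098267-121098395, 64.4 kb into the 66.7 kb gene. Here the 5hmC peak was the one nearer the end, the opposite order to that at Lef1. Sfrp1, a soluble decoy with a frizzled-like domain, had a 5mC peak of 867 bp at chr8:23416608-23417474, which reached a coding exon 5.54 kb past the start. Dkk1, Dkk2, Dkk3, Sfrp2 and Sost had no peak.

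In the R-spondin axis, which controls how long frizzled receptors stay at the surface, peaks were in the day 10 5hmC list alone. Rspo2, a secreted enhancer of WNT signals needed for limb growth, had an intronic peak at chr15:43133226-43133361, with the AP-1 string. Znrf3, the ubiquitin ligase that removes frizzled receptors, had intronic peaks at chr11:5421961-5422096 and chr11:5357490-5357677. Rspo1, Rspo3, Lgr4, Lgr5 and Rnf43 had none.

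Whether the same WNT genes and the same places were marked on both days was asked next. Genes with a 5hmC peak on both days were Daam1, Ror2, Tcf7l1, Tcf7l2, Wnt4 and Wnt5b, which is 6 of 60 (10%; background 2.54%). All but Wnt4 are longer than 100 kb, and a background by length was not computed for this count. Peaks in 2 or more lists of any kind were found at 20.7% of protein-coding genes of 100 kb or more and at 4.14% of all. At the level of sites, an overlap with day 10 was found for 3 of 14 day 5 peaks (21.4%, Wilson interval at 95% 7.57 to 47.6), and for 29.6% of the whole day 5 list. In the other direction it was found for 3 of 25 day 10 peaks (12%, 4.17 to 30), and for 17.1% of that list. The intervals cover counting error over peaks only and include the share of the whole list. At Daam1, Ror2 and Wnt5b the gene was thus in both lists through different places.

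The pairing of the marks was asked in the same way. Fzd6, Lef1, Ror1, Tcf7l1, Tcf7l2 and Wif1 had a day 10 5mC peak and a 5hmC peak of either day, which is 6 of 60 (10%; background 2.2%). Of these, Lef1, Ror1, Tcf7l1 and Tcf7l2 are longer than 100 kb, and a background by length was not computed here either. No 5mC peak overlapped a 5hmC peak at these genes. In the whole lists 0.833% of 5mC peaks overlapped a day 10 and 0.958% a day 5 5hmC peak, a rate at which 16 peaks are too few to show a difference.

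Locations within the genes differed between the lists, at WNT genes and over all protein-coding genes. Only peaks in a gene or its 5000 bp upstream were counted here, which are 15 5mC, 14 day 5 5hmC and 22 day 10 5hmC peaks at WNT genes. A coding exon was touched by 8 of 15 5mC peaks, against 50.5% of all 5mC peaks in protein-coding genes. On day 5 this was 1 of 14 5hmC peaks, against 21.5%, and on day 10 0 of 22, against 7.12%. Introns without any exon held 20 of 22 day 10 5hmC peaks, against 80.6%, 10 of 14 on day 5, against 65.6%, and 7 of 15 5mC peaks, against 39.6%. Promoters held 2 of 22 day 10 and 2 of 14 day 5 5hmC peaks, against 7.33% and 6.09%, and 0 of 15 5mC peaks, against 3.99%. Only 2 of the 5mC peaks had their midpoint in a coding exon, at Ror1 and Wnt6, so most of those 8 touched it with part of their width. By midpoint the share of all 5mC peaks in protein-coding genes was 24.9%. For 5hmC the midpoint was in a coding exon for 1 day 5 peak, at Wnt5b, against 7.53%, and for 0 day 10 peaks, against 4.18%.

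The form of the peaks was set beside that of their lists. Median widths were 901 bp (day 10 5mC), 901.5 bp (day 5 5hmC) and 163 bp (day 10 5hmC), against 1006, 819 and 147 bp. Medians of CpG per 100 bp were 2.47, 1.72 and 2.21, against 2.42, 1.61 and 1.8, and each lay within the quartiles of its list. GC content had medians of 49.3%, 50.5% and 50%, against 46.9%, 48.7% and 50.4%. The median share of bases in repeats was 13.3%, 9.71% and 6.97%, against 14%, 10.6% and 0%. For day 10 5hmC the median at WNT genes was above that of the list but within its quartiles, 0 to 17.4%.

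**Figure D4:**
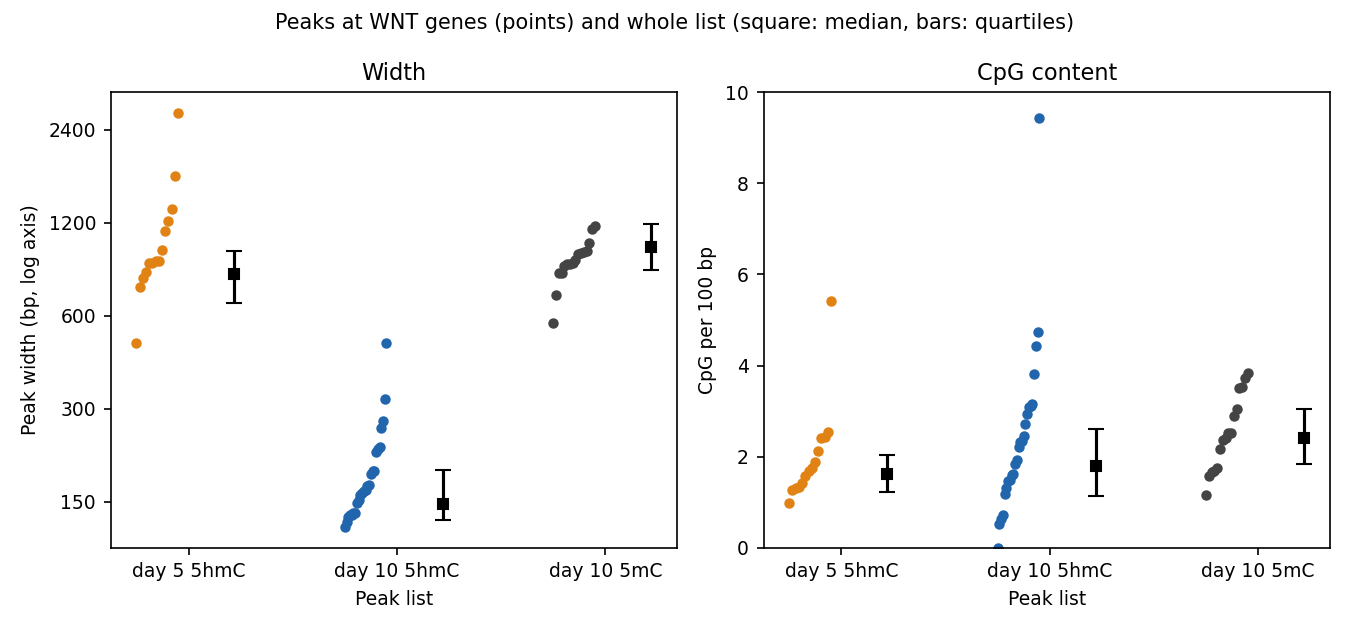
Width in bp (left, log axis) and CpG per 100 bp (right) of each peak at the WNT genes (points) in 3 lists (horizontal axis), beside the median (square) and quartiles (bars) of the whole list. Day 10 5hmC peaks are the narrow ones, at 124 to 488 bp, and the Fzd9 peak at 9.42 CpG per 100 bp is the highest point on the right.

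The TCF/LEF string was in 4 of the 25 day 10 5hmC peaks at WNT genes (16%, Wilson interval 6.4 to 34.7), against 5.91% of the whole list. In the wider day 5 peaks it was in 2 of 14 (14.3%, 4.01 to 39.9), against 26.2%, at Ror2 and Wnt4. In 5mC peaks it was in 5 of 16 (31.2%, 14.2 to 55.6), against 33.4%, namely in 3 peaks of Tcf7l2 and in those of Fzd1 and Wnt7b. The AP-1 string was in 4 of 25 (16%, 6.4 to 34.7), 6 of 14 (42.9%, 21.4 to 67.4) and 3 of 16 (18.8%, 6.59 to 43.0) in the same order, against 7.97%, 43.1% and 13.4%. The day 10 5hmC share of the TCF/LEF string was the one of these 6 whose interval did not include that of its list, by a count of 4 peaks. In windows of 200 bp the share at WNT genes was again 16% and that of the list 6.75%, which lies inside the interval, so this exception was lost. Of the 4 peaks, those at Daam1, Frzb and Znrf3 had 52.9%, 45.6% and 37.8% of their bases in repeats, and that at Tcf7l2 0%; the part of repeats in the share was not tested. Several shares were compared, and a string match is not a bound site.

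Distances from the start of each gene to the nearest peak, whether in the gene or not, took in the genes without a peak of their own. For day 10 5hmC the median was 116.0 kb over the 60 genes (quartiles 34.1 to 269.1), against 251.0 kb for protein-coding genes. For day 5 5hmC it was 323.3 kb, against 388.8 kb, and for day 10 5mC 397.8 kb, against 413.0 kb. For day 0 5mC, the shortest list, the median was the larger one at WNT genes, 3532.9 kb over the 59 genes with a peak on their chromosome, against 2888.7 kb. Among the other 3 lists the gap was widest for day 10 5hmC, the longest list. Among genes without a peak, the nearest day 10 5hmC peak was closest at Fzd10 (24.7 kb), Dkk3 (26.2 kb), Wnt5a (28.3 kb) and Sost (31.3 kb). It was 42.3 kb away at Fzd7, 47.1 kb at Ctnnb1, 547.8 kb at Gsk3b and, the farthest, 1811.5 kb at Fzd3.

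**Figure D5:**
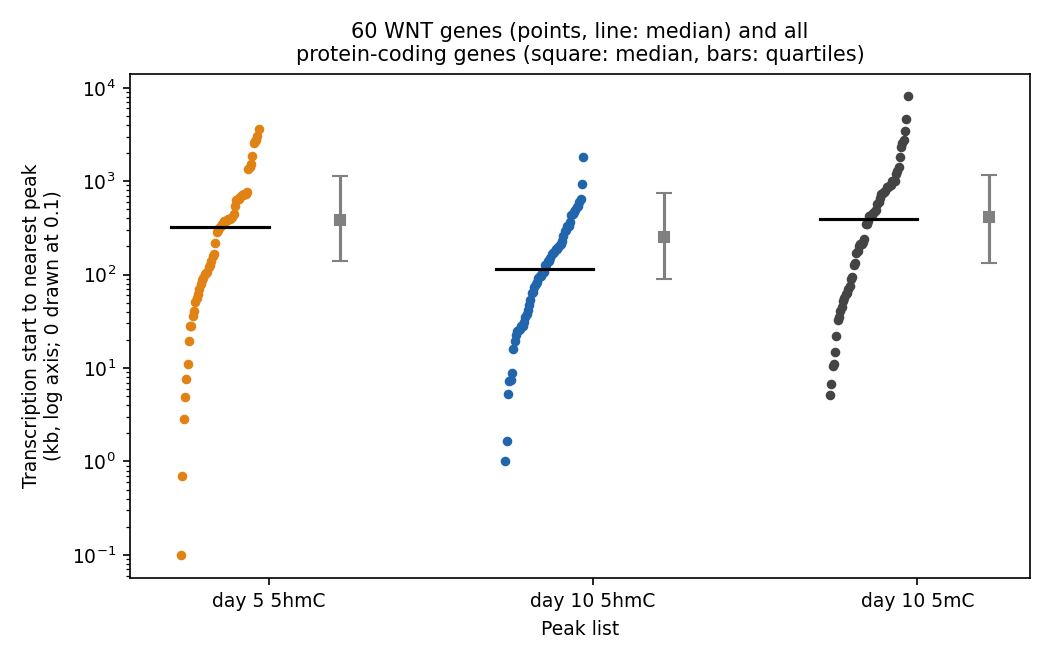
Distance in kb (log axis) from the transcription start to the nearest peak of 3 lists (horizontal axis), for each of the 60 WNT genes (points, line at the median) and for all protein-coding genes (grey square at the median, bars at the quartiles). The line for day 10 5hmC, at 116.0 kb, is below the grey square at 251.0 kb, while for day 10 5mC both are close, at 397.8 and 413.0 kb.

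A further list of 50 WNT pathway genes, made of rarer ligands, secretion factors, kinases, planar polarity genes, cofactors and target genes, gave lower shares. Of these, 12 (24%) had a peak in any list, against 15.9% of protein-coding genes. By list it was 6 (12%) in day 10 5mC, 5 (10%) in day 5 5hmC, 6 (12%) in day 10 5hmC and 0 in day 0 5mC, against the same backgrounds as above. The 50 genes were not split by length, and of protein-coding genes of 100 kb or more 48.3% had a peak in any list. Of the 50 genes, those with peaks in 2 or more lists were Myc, Vangl1, Celsr1 and Btrc. Each had a day 10 5mC peak and a 5hmC peak, which is 4 of 50 (8%, background 2.2%). Myc, a target gene of the canonical branch, was the one with 5hmC on both days, which is 1 of 50 (2%, background 2.54%). It had 2 peaks in each of the day 10 5mC, day 5 5hmC and day 10 5hmC lists, all over coding exons of a 4.98 kb gene. There the day 10 5hmC peaks chr15:61987498-61988347 and chr15:61989339-61989986 lay inside the 5mC peak chr15:61987205-61990617, unlike at any of the 60 genes. Vangl1 and Celsr1, membrane proteins of planar polarity, each had a 5mC peak over coding sequence, with an intronic day 10 5hmC peak at Vangl1 and a day 5 5hmC peak over coding sequence at Celsr1. Btrc, the ubiquitin ligase adaptor that recognises β-catenin, had a 5mC and a day 5 5hmC peak near each other, 74.8 and 78.2 kb past its start.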

How the data were processed

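The authors enriched ATDC5 DNA for 5mC with a methyl-CpG binding complex and for 5hmC by glucosylation and capture, aligned the reads with BWA and called peaks with MACS 1.4.2 (per the submitters' processing notes and the study's methods). The deposited files are 4 peak lists on GRCm38 with chromosome, start, end and, for part of the peaks, the authors' gene symbol. Deposited values are thus coordinates in bp, with no score, count or fold per peak. The 5hmC samples were merged by day before deposit.

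Here, empty rows (27818 and 25449 in the 5hmC lists) were dropped, and starts and ends were read as 1-based and inclusive, which the sources used here do not state. Genes, exons and introns came from GENCODE mouse release 21, and sequences from the RefSeq GRCm38 genome (python 3.11.15, pandas 2.3.3, pysam 0.24.0). A peak was given 1 location, in the order coding exon, UTR exon, noncoding exon, intron and promoter (5000 bp upstream). Overlap meant at least 1 bp. Assignment of peaks to genes was tested on simulated data, with 0 planted peaks missed. No test was run, since each mark and day had 1 list; counts stand beside those of 21951 protein-coding genes. Wilson intervals are at 95% and cover counting error only.

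The members and lists, and the further 50 genes, were chosen with earlier results of these data known. Named were all members with a peak, members without one by role, and further genes with peaks in 2 or more lists or at least 3 peaks. Sequences shown were peaks shared between days, then promoter and coding exon peaks. Those with the TCF/LEF string, and Axin2 among the coding ones, were chosen after the values were seen. Other settings covered upstream length, assignment by symbol or position, midpoints, merging within 1000 bp, the overlap rule, the gene set, windows of 200 bp and, added later, RefSeq gene bounds. Comparison of the members with length classes was also added later.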

Additional observations from a re-analysis of the deposited data

How the results depend on the processing

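Of 106 recomputed values, 88 stayed within 1.5 times the reported count or within its error and 18 moved. Under all settings for assignment, numbers of WNT genes with a peak stayed at 10 to 11 for day 10 5mC and 8 for day 5 5hmC. For day 10 5hmC they stayed at 13 to 16, and for 5hmC on both days at 5 to 6. The lower ends were by position only. All peaks at WNT genes carried the authors' symbol of that gene, so settings that kept the symbol could not lower these counts. Under a rule of 50% mutual overlap, 0 day 5 5hmC peaks overlapped a day 10 peak, since day 10 peaks are narrower. By midpoint, 3 day 10 5mC peaks lay in an exon and 12 in an intron, and 1 day 5 5hmC peak lay in an exon. In windows of 200 bp, which hold less sequence than most day 5 5hmC and 5mC peaks, the AP-1 string was in 0% of 5mC and 0% of day 5 5hmC peaks at WNT genes, and the TCF/LEF string in 12.5% and 0%. In the whole lists these windows held AP-1 in 2.87% (day 10 5mC), 18.7% (day 5 5hmC) and 9.29% (day 10 5hmC), and TCF/LEF in 6.87%, 6.66% and 6.75%. At day 10 5hmC the share at WNT genes was 16% for either string in these windows too. With all 55450 annotated genes as background, the shares with a peak were 0.337% (day 0 5mC), 3.47% (day 10 5mC), 2.82% (day 5 5hmC) and 4.61% (day 10 5hmC).

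No paired analysis was possible because 5hmC samples with the same number entered 1 merged list for each day. Merging also left no replicate to omit, and the unknown depth limits every count.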
